A study of Mus musculus with 225 samples.

Results

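*Prrx1*, *Prrx2*, *Twist1* and *Twist2* are 4 of the 10948 genes in the normalised table of a single-cell RNA-seq study of the mouse forelimb at embryonic day 12.5 (E12.5). They were taken by their gene names, and each name matched 1 row of the raw count table and 1 row of the normalised table. Cells came from pooled littermate forelimbs of mixed C57Bl6CBAF1 background, heterozygous for a tau-GFP knock-in at *Hoxd11*. The autopod (the future hand) and the zeugopod (the future forearm) were dissected apart, the cells brightest for GFP were sorted, and each was captured and sequenced as its own library. All values therefore describe cells bright for GFP protein from the *Hoxd11* allele, which need not hold *Hoxd11* mRNA, and not the whole limb bud. Of 225 captured cells the authors left out 26. Of the others, 76 were autopod cells, sequenced in the runs NXT0072 (59 cells) and NXT0143 (17 cells), and the rest were zeugopod cells, sequenced in NXT0142 (58 cells) and NXT0143 (65 cells), so that only NXT0143 holds both tissues. The labels name no embryo for any cell. Each tissue therefore counts as a single pooled sample, and no test between cells was run.

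PRRX1 and PRRX2 are paired-related homeodomain proteins of the early limb mesenchyme, and mice that lack both have severe defects of the limb skeleton. TWIST1 and TWIST2 are basic helix-loop-helix proteins that bind E-box sequences as dimers, with E proteins such as TCF3, TCF4 and TCF12 or with HAND2, while ID proteins compete for the E proteins. All 4 are known from undifferentiated or connective tissue mesenchyme. SOX9 is the transcription factor that starts cartilage formation, and *Col2a1*, which encodes type II collagen of cartilage, is one of its direct targets.

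In GENCODE vM21 (GRCm38), *Prrx1* (ENSMUSG00000026586) lies on the minus strand at chr1:163245119-163313710 and *Twist2* (ENSMUSG00000007805) on the plus strand at chr1:91801461-91848028. *Prrx2* (ENSMUSG00000039476) is on the plus strand at chr2:30834972-30881251 and *Twist1* (ENSMUSG00000035799) on the plus strand at chr12:33957671-33959829. Exons of *Prrx1* share 1134 bases with the antisense gene *Gm20471*, and exons of *Twist2* share 1477 bases with the antisense gene *Gm29100*. The sources used here do not say that strand was used in counting, and reads of such partners then cannot be told apart. RefSeq (GRCm38.p6) gives promoter windows of 300 bases around each start, and all 4 genes matched one. The 150 bases upstream of the start are printed 5′ to 3′ in lower case for 3 of the genes, so that the letters that either protein family is known to bind can be read there directly. The E-box CANNTG, which reads the same on both strands and would stand in capitals, did not occur in the 300-base window of any of the 4 genes, against 72.3% of 32851 such windows. The homeodomain core TAATTA, also the same on both strands, stands in capitals and occurred once, upstream of *Prrx1*. It was found in 5.29% of all windows.
*Prrx1*, chr1:163313711-163313860, minus strand: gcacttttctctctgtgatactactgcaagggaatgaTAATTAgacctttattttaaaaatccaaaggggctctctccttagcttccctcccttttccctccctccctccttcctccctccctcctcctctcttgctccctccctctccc
*Twist1*, chr12:33957521-33957670, plus strand: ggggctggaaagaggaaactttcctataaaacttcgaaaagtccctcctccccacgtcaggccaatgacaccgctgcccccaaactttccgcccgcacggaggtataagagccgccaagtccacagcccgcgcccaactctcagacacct
*Twist2*, chr1:91801311-91801460, plus strand: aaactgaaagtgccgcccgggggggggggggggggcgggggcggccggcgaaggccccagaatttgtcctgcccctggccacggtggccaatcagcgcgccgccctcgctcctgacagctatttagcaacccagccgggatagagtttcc
The upstream part of the *Prrx2* window lies wholly within annotated exons of the gene and is not printed. These matches describe letters only.

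Retained cells held 186271 to 9437447 reads on genes, with a median of 2830020 in autopod and 3233740 in zeugopod cells, and a median of 3684 and 3995 genes with at least 1 read. The tissue labels were checked against *Hoxd13*, an autopod gene, which had at least 5 reads in 65 of 76 autopod cells and in 1 zeugopod cell. *Shox2*, a zeugopod gene, reached 5 reads in 73 zeugopod cells (59.3%) and in 0 of the 76 autopod cells. By a floor of 3 cells, that count limits the share of cells with 5 reads to 3.95%. The runs of the autopod differed in these markers, with *Hoxd13* in 54 of 59 NXT0072 and 11 of 17 NXT0143 cells, and *Hoxa13*, another autopod gene, in 39 of 59 and 6 of 17. Muscle, endothelial, macrophage and Schwann cell markers never reached 5 reads for 2 markers in the same cell, and epithelial markers did so in 1 zeugopod cell. The summed level of each of these lists had a median of 0 CPM (reads of a gene scaled to the total reads on genes of the cell) in each of the 4 groups of tissue and run.

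A gene was taken as present in a cell at 5 or more reads. Intervals are exact 95% Clopper-Pearson intervals on numbers of cells. They cover counting error only, and leave out differences between embryos and runs, since each tissue is a single pooled sample. Whether intervals overlap is given as a description and not as a test. The reads carry no molecular identifiers. By presence at 5 reads, *Prrx1* was the most widespread of the 4 genes in both tissues. *Prrx2* and *Twist1* were found in a larger share of autopod than of zeugopod cells, and *Twist2* was the rarest in the autopod. *Prrx1* was present in 47 of 76 autopod cells (61.8%, interval 50 to 72.8%) and in 86 zeugopod cells (69.9%, interval 61 to 77.9%), and these intervals overlap. *Prrx2* was present in 27 autopod cells (35.5%, interval 24.9 to 47.3%) and 14 zeugopod cells (11.4%, interval 6.36 to 18.4%). *Twist1* was present in 43 autopod cells (56.6%, interval 44.7 to 67.9%) and 21 zeugopod cells (17.1%, interval 10.9 to 24.9%). For these latter genes the intervals of the tissues do not overlap. *Twist2* was present in 5 autopod cells (6.58%, interval 2.17 to 14.7%) and 17 zeugopod cells (13.8%, interval 8.26 to 21.2%). Neighbours in the order of the autopod overlap in their intervals (*Prrx1* with *Twist1*, and *Twist1* with *Prrx2*) except *Prrx2* and *Twist2*. In the zeugopod *Prrx1* stands apart and the other genes overlap. After every cell was thinned to 500000 reads, which all but 4 cells of each tissue allowed, the shares were 54.2% and 63% for *Prrx1*, 31.9% and 5.04% for *Prrx2*, 44.4% and 14.3% for *Twist1* and 2.78% and 9.24% for *Twist2*. The order of the tissues was thus the same at equal depth for each gene.

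Within the autopod, the shares differed between runs. *Prrx1* was present in 40 of 59 cells of NXT0072 and 7 of 17 cells of NXT0143, *Prrx2* in 26 and 1, *Twist1* in 38 and 5, and *Twist2* in 3 and 2. *Col2a1* went the other way, with 29 of 59 cells in NXT0072 and 14 of 17 in NXT0143, while *Sox9* was present in 55 of 59 and 17 of 17. In the zeugopod, *Prrx1* was present in 46 of 58 cells of NXT0142 and 40 of 65 of NXT0143, *Prrx2* in 8 and 6, *Twist1* in 15 and 6, and *Twist2* in 8 and 9. The median depth was 3076200 reads in the NXT0072 and 2641870 in the NXT0143 autopod cells, and 4048530 and 2659810 in the zeugopod cells of NXT0142 and NXT0143. The part of depth in these run differences was not tested beyond the thinned values, in which *Prrx2* remained in 22 of 56 and 1 of 16 autopod cells. Within NXT0143 alone, the shares in the autopod and the zeugopod were 41.2% and 61.5% for *Prrx1*, 5.88% and 9.23% for *Prrx2* and 29.4% and 9.23% for *Twist1*. At 5 reads, the higher share of *Prrx2* in the autopod thus rested on the comparison between runs. With presence set at 1 read, *Prrx2* was found in 6 of 17 autopod and 10 of 65 zeugopod cells of NXT0143. In thinned cells of that run it was present in 1 of 16 and 0 of 63.

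**Figure D1:**
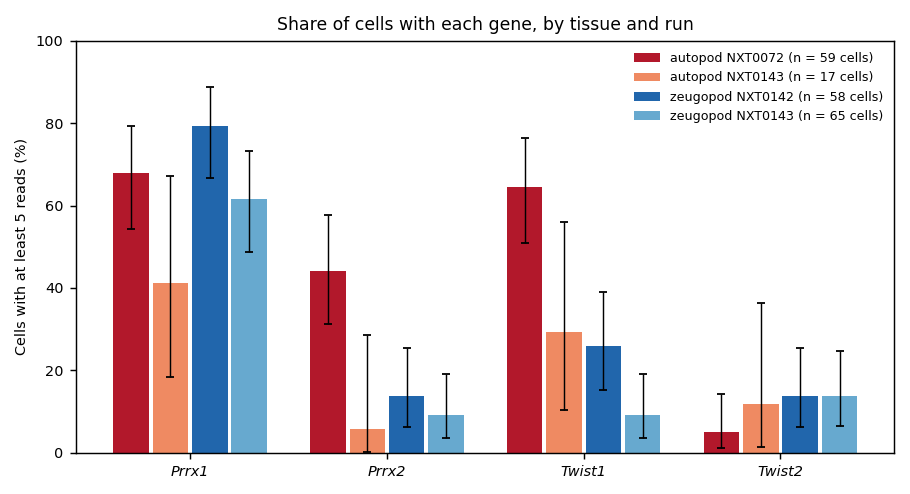
Share of cells (%, vertical axis) with at least 5 reads of each gene in the 4 groups of tissue and run. Error bars are exact 95% Clopper-Pearson intervals. *Prrx1* is present in 41.2% to 79.3% of cells in every group, whereas *Prrx2* exceeds 14% only in NXT0072 autopod cells (44.1%).

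Levels were read from the normalised values, which are corrected for size factor and gene length, so that comparisons between genes depend on the lengths used. The length used for *Prrx1* was 11.1 kb, the union of its exons, against 6.53 kb for its longest transcript in GENCODE, which lowers its values relative to the other members. In the autopod, *Prrx2* had the highest normalised level in cells in which it was present. Its values there ran from 8.13 to 6847 with a median of 453, against 0.271 to 2165 with a median of 133 for *Prrx1* and 1.85 to 1854 with a median of 138 for *Twist1*. *Twist2* in its 5 autopod cells ran from 3.53 to 127.1 with a median of 76.5. In the zeugopod, *Prrx1* values ran from 0.452 to 629 (median 112.6), *Twist1* from 2.47 to 930 (median 100.7), *Twist2* from 2.35 to 456 (median 42.4) and *Prrx2* from 3.05 to 1264 (median 20.8). The ranges of the genes overlap widely in both tissues. *Prrx2* levels differed by run. Its median was 519 in the 26 NXT0072 cells with the gene and 19.8 in the 1 NXT0143 autopod cell, and its zeugopod values reached 1264 in NXT0142 but 16.3 in NXT0143. A few cells carried much of the signal of the rarer genes. The highest cell held 52.1% of all *Prrx2* signal of the zeugopod and 34.8% of its *Twist2* signal, but 4.53% of its *Prrx1* signal. In the autopod the highest cell held 29.3% of *Prrx2*, 15.9% of *Prrx1* and 13.6% of *Twist1*.

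**Figure D2:**
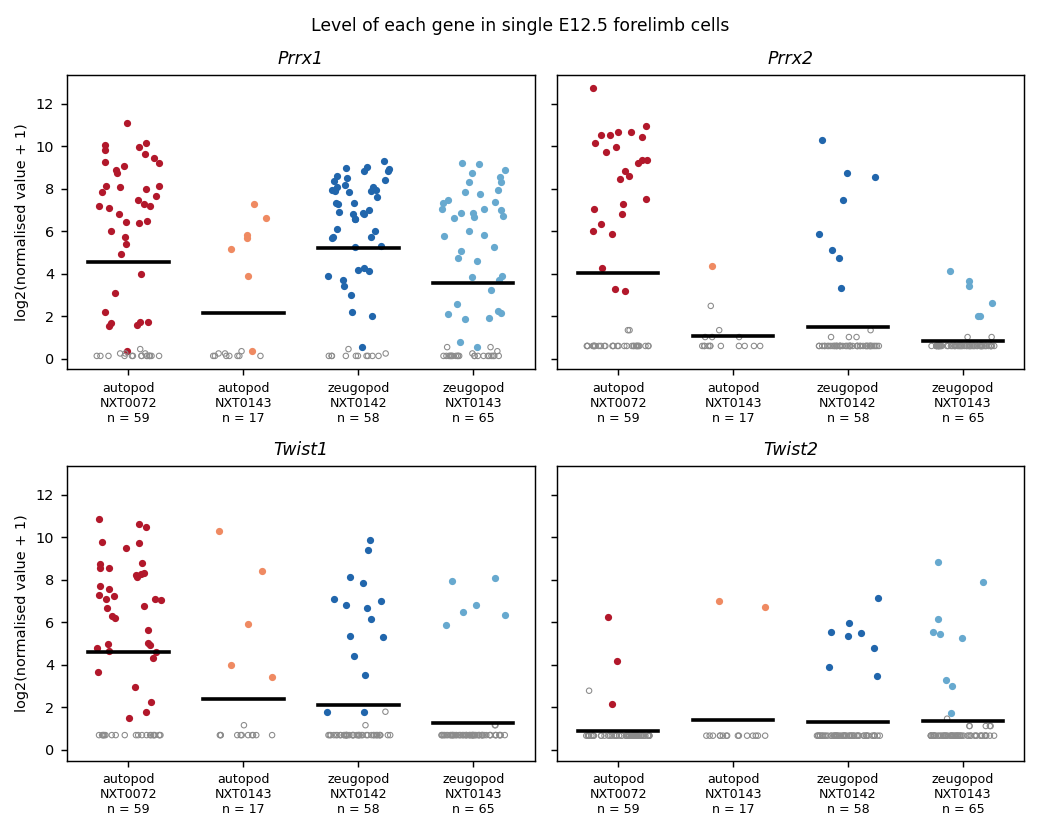
Level of each gene, log2(normalised value + 1), in each retained cell of the 4 groups. Filled points are cells with at least 5 reads, open points cells with fewer, and the black line is the mean over all cells of the group. In NXT0072 autopod cells the *Prrx1*, *Prrx2* and *Twist1* points split between a floor and a broad range, and their means are 4.55, 4.05 and 4.60.

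The tissues were compared by the difference of mean log2(normalised value + 1), autopod minus zeugopod, and a gene was called at a difference of at least 1 in size. Over all cells, *Twist1* differed by 2.44, from means of 4.11 (autopod) and 1.68 (zeugopod). *Prrx2* differed by 2.24, from means of 3.38 and 1.13. Both were called higher in the autopod, as were 6.06% of the 4898 genes with at least 5 reads in 25% of the cells of either tissue. *Prrx1* (4.01 and 4.34, difference -0.33) and *Twist2* (0.998 and 1.32, difference -0.33) were not called, and 13.4% of genes were called lower. *Twist2* did not reach 25% of cells in either tissue, and *Prrx2* and *Twist1* reached it in the autopod only, in which they were higher, so that their place among the called genes is a description. The median difference of all genes was -0.12, and -0.29 on the CPM scale. Within NXT0143, *Twist1* was higher in the autopod by 1.12 (means 2.40 and 1.28), where 18.4% of genes were called higher. *Prrx1* was lower by a difference of -1.42 (means 2.15 and 3.57), where 9.21% of genes were called lower. *Prrx2* differed by 0.22 and *Twist2* by 0.05, which turned to -0.10 on the CPM scale. Between NXT0072 autopod and NXT0142 zeugopod cells, *Prrx2* differed by 2.57 and *Twist1* by 2.49, with 6.64% of genes called higher, and *Prrx1* by -0.65 and *Twist2* by -0.41, with 24.3% called lower. Of the 4 genes, *Twist1* was the one called in the same direction in all 3 comparisons. The first of these holds the cells of the others and is not separate from them. Only the comparison in NXT0143 lies within a run. There *Twist1* was present in 5 of 17 autopod and 6 of 65 zeugopod cells, and the intervals overlap (10.3 to 56% and 3.46 to 19%). Run and tissue cannot be told apart between NXT0072 autopod and NXT0142 zeugopod cells. Differences between the runs of the autopod were of similar size. NXT0072 minus NXT0143 was 2.40 for *Prrx1*, 3.0 for *Prrx2*, 2.20 for *Twist1*, -0.51 for *Twist2* and -2.94 for *Col2a1*, beside a median of -0.14 over all genes. Between the runs of the zeugopod, NXT0142 minus NXT0143 was 1.63 for *Prrx1*, 0.83 for *Twist1*, 0.65 for *Prrx2* and -0.05 for *Twist2*, beside a median of 0.36.

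Single cells differed in which of the 4 genes they held. In the autopod, the most frequent combination was *Prrx1* with *Prrx2* and *Twist1* (17 of 76 cells, 22.4%, interval 13.6 to 33.4%), followed by none of the 4 (16 cells) and *Prrx1* with *Twist1* (15 cells). *Prrx1* alone was found in 10 cells. In the zeugopod, *Prrx1* alone made up 58 cells (47.2%, interval 38.1 to 56.4%) and none of the 4 made up 31 cells, while *Prrx1* with *Prrx2* and *Twist1* was found in 2. All 4 genes were present together in 2 autopod and 4 zeugopod cells. At least 3 of the genes were present in 20 autopod cells, of which 19 were from NXT0072, and in 12 zeugopod cells. The median number of genes detected in autopod cells was 3511 with none of the 4, 3080 with 1, 3018 with 2 and 4172 with 3. In zeugopod cells it was 3691, 3950, 4325 and 4892 in the same order.

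**Figure D3:**
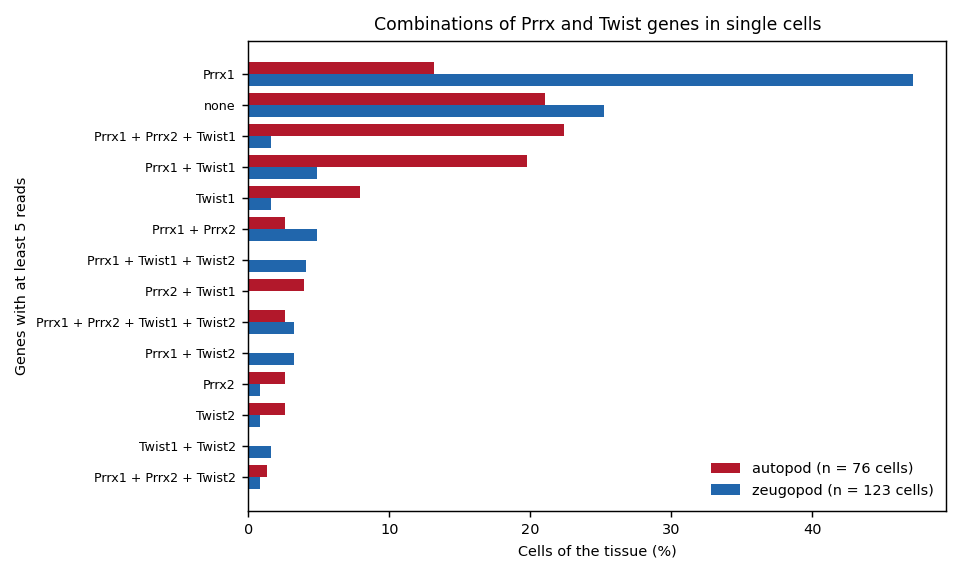
Share of the cells of each tissue (%, horizontal axis) with each combination of the 4 genes at 5 or more reads. The longest zeugopod bar is *Prrx1* alone (47.2%), and the longest autopod bar is *Prrx1* with *Prrx2* and *Twist1* (22.4%).

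Pairs of genes were often present in the same cell. In the autopod, *Twist1* was present in 34 of 47 cells with *Prrx1* (72.3%, interval 57.4 to 84.4%) and in 9 of 29 cells without it (31%, interval 15.3 to 50.8%). *Twist1* was present in 22 of 27 cells with *Prrx2* (81.5%, interval 61.9 to 93.7%) and in 21 of 49 cells without it (42.9%, interval 28.8 to 57.8%). The pooled intervals of both comparisons are apart, but these shares join runs that differ in all 3 genes. Within NXT0072, *Twist1* was present in 31 of 40 cells with *Prrx1* (77.5%, interval 61.5 to 89.2%) and 7 of 19 without it (36.8%, interval 16.3 to 61.6%). It was present in 21 of 26 cells with *Prrx2* (80.8%, interval 60.6 to 93.4%) and 17 of 33 without it (51.5%, interval 33.5 to 69.2%). Both pairs of intervals overlap within that run. *Prrx1* was likewise present in 22 of 27 cells with *Prrx2* and 25 of 49 without it (51%, interval 36.3 to 65.6%), and here the intervals overlap. In thinned cells the shares of *Twist1* were 59% with and 27.3% without *Prrx1*, and 87% with and 24.5% without *Prrx2*. With presence set at 1 read the gaps were narrower, at 67.3% and 47.6% for *Prrx1* and 68.6% and 56.1% for *Prrx2*. In NXT0143 autopod cells, *Twist1* was present in 3 of 7 cells with *Prrx1* and 2 of 10 without it. In the zeugopod the pair with the widest gap was *Twist1* and *Twist2*. *Twist1* was present in 11 of 17 cells with *Twist2* (64.7%, interval 38.3 to 85.8%) and in 10 of the cells without it (9.43%, interval 4.62 to 16.7%). The shares were 7 of 8 and 8 of 50 in NXT0142 and 4 of 9 and 2 of 56 in NXT0143, so that the gap appeared in both runs. At 1 read the shares were 48.1% and 18.8%. In the autopod, *Twist1* was present in 2 of the 5 cells with *Twist2*. *Prrx1* in the zeugopod went less closely with *Twist1*, which was present in 17 of 86 cells with *Prrx1* (19.8%, interval 12 to 29.8%) and 4 of 37 without it (10.8%, interval 3.03 to 25.4%). The rank correlation (Spearman) of *Twist1* with *Twist2* on CPM was 0.47 in NXT0142 zeugopod, 0.28 in NXT0143 zeugopod, 0.02 in NXT0072 autopod and -0.11 in NXT0143 autopod cells. These cells share library preparation and differ in depth, and the coefficients are descriptions.

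*Col2a1* separated the autopod cells by 3 of the 4 genes. Cells with *Col2a1* (43) held *Prrx1* in 20 cells (46.5%, interval 31.2 to 62.3%), and cells without it (33) in 27 cells (81.8%, interval 64.5 to 93%). *Prrx2* was present in 6 cells with *Col2a1* (14%, interval 5.30 to 27.9%) and 21 without (63.6%, interval 45.1 to 79.6%). *Twist1* was present in 17 cells with *Col2a1* (39.5%, interval 25 to 55.6%) and 26 without (78.8%, interval 61.1 to 91%). The pooled intervals are apart for all 3 of these genes. Within NXT0072, where 29 cells held *Col2a1* and 30 did not, those of *Prrx1* overlap (51.7%, interval 32.5 to 70.6%, and 83.3%, interval 65.3 to 94.4%), while those of *Prrx2* (17.2%, interval 5.85 to 35.8%, and 70%, interval 50.6 to 85.3%) and *Twist1* (44.8%, interval 26.4 to 64.3%, and 83.3%, interval 65.3 to 94.4%) are apart. *Twist2* was present in 1 and 4 cells. The mean log2 level in *Col2a1* cells minus that in the others was -2.46 for *Prrx1*, -3.33 for *Prrx2*, -2.14 for *Twist1* and -0.42 for *Twist2*. Of the 4032 genes tested in the autopod, 29% were lower by at least 1 and the median was -0.57, so that *Col2a1* cells had lower values of many genes, and they had a median of 3455 genes detected against 4050. Within NXT0072 (29 and 30 cells) the differences were -2.10, -3.37, -2.18 and -0.42 in the same order of genes, with 30.9% of genes called lower. NXT0143 had only 3 cells without *Col2a1*, and there *Prrx1* differed by -1.82, *Prrx2* by 0.25, *Twist1* by 0.75 and *Twist2* by -1.56, with 52.1% of genes called lower. The rank correlation with *Col2a1* over the 76 autopod cells was -0.39 for *Prrx1*, -0.40 for *Prrx2*, -0.32 for *Twist1* and -0.23 for *Twist2*, where the median over the tested genes was -0.09. Given the number of genes detected in a cell, it was -0.36, -0.37, -0.31 and -0.19. In the 17 cells of NXT0143 it ran from -0.24 to 0.21.

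In the zeugopod the relation to *Col2a1* was seen mainly for the *Twist* genes, and it rested on few cells, since 91.1% of zeugopod cells held *Col2a1* and 11 did not. *Twist1* was present in 15 cells with *Col2a1* (13.4%, interval 7.69 to 21.1%) and 6 of 11 without it (54.5%, interval 23.4 to 83.3%), and its mean differed by -2.45. *Twist2* was present in 14 and 3 cells and differed by -1.47. *Prrx1*, present in 77 and 9 cells, differed by -0.77 and *Prrx2* by -0.76. Genes called lower made up 15% of the 4304 tested in the zeugopod, among which *Prrx1* was the only one of the 4. In NXT0142, with 4 cells without *Col2a1*, all 4 genes differed by -1.07 or less and 37.4% of genes were called lower. In NXT0143, with 7 such cells, *Twist1* differed by -2.23, *Twist2* by -1.71, *Prrx1* by -0.68 and *Prrx2* by -0.36, with 13% of genes called lower. In thinned cells, where *Col2a1* had to have 5 of 500000 reads, none of the 4 genes differed by -1 or less and *Twist1* differed by -0.78. With *Col2a1* required at 20 reads, *Twist1* differed by -1.31 and *Twist2* by -0.95.

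*Sox9* was present in 72 of 76 autopod cells, and the 4 cells without it were all from NXT0072. Those 4 held *Twist1* in 4 cells, *Prrx2* in 3, *Prrx1* in 2 and *Twist2* in 0. *Sox9* cells minus the others gave -2.37 for *Twist1*, -2.04 for *Prrx2*, 0.97 for *Prrx1* and 0.35 for *Twist2*, with 17.9% of genes called lower, and 18.4% within NXT0072. As 4 cells allow little comparison, the autopod cells were also split at the median *Sox9* level of 1088 CPM, a split chosen after seeing the data. The upper 38 cells held *Twist1* in 14 cells (36.8%, interval 21.8 to 54%), and the lower 38 in 29 cells (76.3%, interval 59.8 to 88.6%). *Prrx2* was present in 8 and 19 cells, *Prrx1* in 20 and 27 and *Twist2* in 0 and 5. The difference of means, upper minus lower, was -2.54 for *Twist1*, -2.47 for *Prrx1*, -2.16 for *Prrx2* and -0.66 for *Twist2*. Split at its own median, NXT0072 gave -3.57 for *Twist1*, -3.08 for *Prrx1* and -3.31 for *Prrx2*, beside a median of -0.91 over the tested genes. NXT0143, with 9 and 8 cells, gave -1.25, -0.58 and -0.59, beside a median of -0.88. Over the tested genes the median was -0.88 and 44.1% were called lower, with a median of 3188 genes detected in the upper and 4052 in the lower cells. The rank correlation with *Sox9* was -0.31 for *Twist1*, -0.26 for *Prrx2*, -0.18 for *Prrx1* and -0.08 for *Twist2*, and -0.32, -0.30, -0.21 and -0.11 given the number of genes detected.

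In the zeugopod, 79 cells had *Sox9* and 44 did not. *Twist1* was present in 9 cells with *Sox9* (11.4%, interval 5.34 to 20.5%) and 12 without (27.3%, interval 15.0 to 42.8%), and *Twist2* in 6 (7.59%, interval 2.84 to 15.8%) and 11 (25%, interval 13.2 to 40.3%). The intervals overlap for both genes. *Twist1* differed by -1.08, *Twist2* by -0.80, *Prrx2* by -0.23 and *Prrx1* by 0.05 (-0.12 on the CPM scale), and 8.78% of genes were called lower. The *Twist1* difference was -1.32 in NXT0143 (9.92% of genes called lower) and -0.75 in NXT0142 (18.9%), where it no longer passed 1. *Twist1* in NXT0143 was present in 1 of 43 cells with *Sox9* and 5 of 22 without. *Prrx1* was present in 53 of 79 cells with *Sox9* and 33 of 44 without (67.1% and 75%), and its rank correlation over all zeugopod cells was 0.02 with *Sox9* and 0.02 with *Col2a1*. Those of *Twist1* were -0.22 and -0.28 and those of *Twist2* -0.19 and -0.14.

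When both markers were used together, autopod cells fell into 43 with *Sox9* and *Col2a1*, 29 with *Sox9* only and 4 with neither. No autopod cell held *Col2a1* without *Sox9*. Between the first 2 of these classes *Prrx2* went from 14% to 62.1%, *Prrx1* from 46.5% to 86.2% and *Twist1* from 39.5% to 75.9%. All of these *Sox9* cells lacking *Col2a1* but 3 were from NXT0072. In the zeugopod, 73 cells held both markers, 39 held *Col2a1* without *Sox9*, 6 *Sox9* only and 5 neither. *Twist2* was present in 5 of 73 cells with both (6.85%, interval 2.26 to 15.3%) and 9 of the 39 with *Col2a1* only (23.1%, interval 11.1 to 39.3%), and *Twist1* in 7 and 8. *Prrx1* was present in 48 of 73 and 29 of 39.

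**Figure D4:**
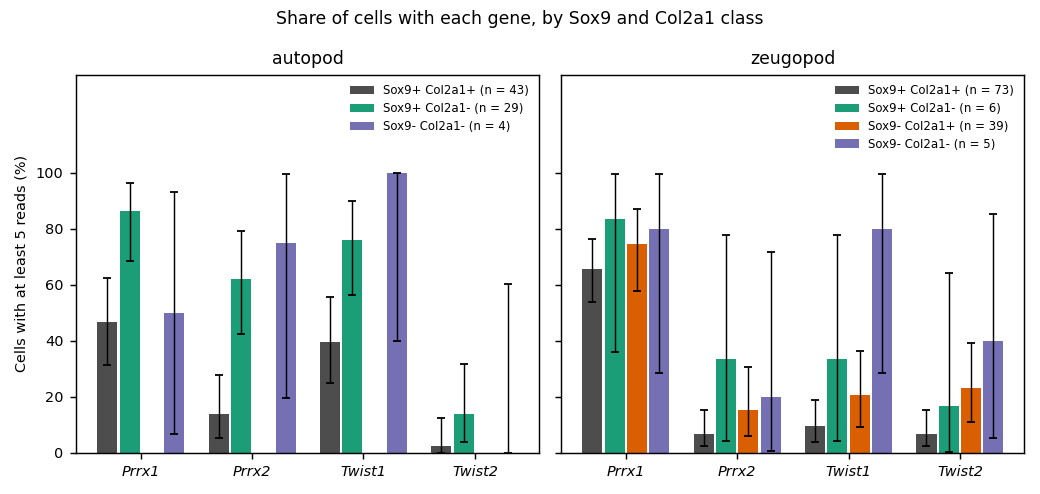
Share of cells (%, vertical axis) with at least 5 reads of each gene, by presence (+) or absence (-) of *Sox9* and *Col2a1* at 5 reads, in the autopod (left) and the zeugopod (right). Error bars are exact 95% Clopper-Pearson intervals. In the autopod the *Sox9*+ *Col2a1*+ bars are lower than the *Sox9*+ *Col2a1*- bars for each gene, from 46.5% against 86.2% for *Prrx1* to 2.33% against 13.8% for *Twist2*.

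Other genes were then compared between cells with and without a member, over gene lists for cartilage, limb mesenchyme factors, E proteins with their partners and inhibitors, connective tissue and proliferation. Cells with a member had higher values of most genes, and the median difference of all tested genes was 0.50 for *Prrx1*, 0.77 for *Prrx2* and 0.30 for *Twist1* in the autopod and 0.38 for *Prrx1*, 0.57 for *Twist1* and 0.47 for *Twist2* in the zeugopod. On the CPM scale these medians were 0.34, 0.44, 0.19, 0.22, 0.38 and 0.33. The comparisons were not made for *Prrx2* in the zeugopod or *Twist2* in the autopod, which had 14 and 5 cells with the gene. Genes called higher made up 25.8% (*Prrx1*), 39.5% (*Prrx2*) and 17.3% (*Twist1*) of 4031 autopod genes, and genes called lower 3.18%, 2.53% and 5.48%. In the zeugopod they made up 14.2% (*Prrx1*), 29.7% (*Twist1*) and 27.1% (*Twist2*) higher and 1.23%, 2.42% and 3.25% lower. Cells with a member had a median number of genes detected that was larger in each comparison, as in 3890 against 3390 for *Prrx2* in the autopod and 4431 against 3940 for *Twist1* in the zeugopod, and the part of detection in these differences was not tested.

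Cartilage genes were called lower, and none higher, in 5 of the 6 comparisons. Of 8 autopod cartilage genes measured, 5 were called lower in cells with *Prrx1*, 7 in cells with *Prrx2* and 6 in cells with *Twist1*. With *Prrx1*, the genes that were not called were *Sox9* (-0.85), *Sox5* (-0.89) and *Col11a1* (0.46). The median difference of the cartilage list in the autopod was -1.69 with *Prrx1*, -2.04 with *Prrx2* and -2.04 with *Twist1*. In the zeugopod, 6 of 7 were called lower with *Twist1* (median -1.79), 5 of 7 with *Twist2* (median -1.33) and 0 of 7 with *Prrx1* (median 0.04, and -0.35 on the CPM scale). Of all genes, 1.23% to 5.48% were called lower in the 6 comparisons. Genes past 1 in both runs of a tissue are named here, and the share of all genes that pass in both runs was not computed. *Col2a1* differed by -3.40 with *Prrx1* and -2.66 with *Twist1* in the autopod. In the zeugopod *Col2a1* differed by -2.15 with *Twist1* and -1.60 with *Twist2*. *Sox9* was lower in zeugopod cells with *Twist1* by a difference of -3.31 (runs -2.46 and -5.70) and in those with *Twist2* by -3.27 (runs -4.67 and -2.04). *Sox9* was also lower in autopod cells with *Twist1*, by -2.26 (runs -2.70 and -1.69). *Sox6*, a partner of SOX9, differed by -2.29 in autopod cells with *Twist1* and by -1.79 and -1.33 in zeugopod cells with *Twist1* and *Twist2*. *Col9a2*, which encodes a chain of type IX collagen, differed by -2.29 with *Prrx1* and -2.49 with *Twist1* in the autopod, and by -2.34 with *Twist1* and -2.80 with *Twist2* in the zeugopod. *Col9a1* and *Col9a3*, the other chains, differed by -1.71 and -2.06 with *Prrx1* and by -1.81 and -1.75 with *Twist1* in the autopod. With *Twist1* in the zeugopod, *Col9a1* differed by -1.76 and *Col11a1* by -1.21. *Col9a2* was present in 8 of 47 autopod cells with *Prrx1* and 12 of 29 without it. For *Prrx2*, which only 1 cell of NXT0143 held, differences of named genes are given for NXT0072 as well as all cells. The list counts and medians of *Prrx2* join both runs. Some genes called in those counts were not called within NXT0072. These include *Cdh11* (1.65 over all cells and 0.73 in NXT0072), *Fn1* (1.01 and 0.70) and the connective tissue gene *Fstl1* (-1.40 and -0.82). *Col2a1* differed by -3.51 over all autopod cells and -3.36 in NXT0072, and *Sox6* by -2.21 and -2.05.

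The list of limb mesenchyme factors differed by member and tissue. Of 8 measured in the autopod, 6 were called higher with *Prrx1* (median 1.63), 6 with *Prrx2* (median 2.09) and 4 with *Twist1* (median 1.01), and none was called lower. Of all autopod genes, 25.8%, 39.5% and 17.3% were called higher in the same order of members, and only 3.18%, 2.53% and 5.48% lower. *Lhx9*, a LIM homeobox gene of the distal limb, differed by 3.23 with *Prrx1* (runs 2.64 and 4.08) and 2.67 with *Twist1* (runs 1.80 and 4.58). *Msx1*, a homeobox gene of distal mesenchyme, differed by 3.20 with *Prrx1* and 3.08 with *Twist1*, and was present in 34 of 47 cells with *Prrx1* and 12 of 29 without it. With *Prrx2* in the autopod, *Lhx9* differed by 4.09 (3.92 in NXT0072) and *Msx1* by 3.83 (3.81 in NXT0072). *Lhx2* differed by 1.54 with *Prrx1*, and *Msx2* by 1.70 with *Twist1*. In the zeugopod, 1 of 8 was called higher with *Prrx1* (median 0.12, and -0.10 on the CPM scale), where 14.2% of all genes were. There were 5 with *Twist1* (median 1.01), where 29.7% of all genes were called higher, and 4 with *Twist2* (median 0.95), where 27.1% were. *Zfhx3*, a zinc finger homeobox gene, was higher by 2.58 with *Twist1* and 2.51 with *Twist2*, as it was in the autopod with *Prrx1* (1.79) and *Twist1* (1.19). *Zfhx4* was higher by 1.56 and 2.17. *Tbx5*, which specifies the forelimb, differed by 1.97 with *Twist1*, and *Osr1*, a factor of connective tissue progenitors, by 2.53 with *Twist2*. *Shox2*, which is needed for the upper limb skeleton, was higher in zeugopod cells with *Prrx1* (1.19), *Twist1* (2.39) and *Twist2* (4.08, with 7.11 in NXT0142 and 1.38 in NXT0143).

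Among the E proteins, *Tcf12* was higher with *Twist1* in the autopod by 1.43 (runs 1.64 and 1.39) and in the zeugopod by 1.96 (runs 1.48 and 2.68), and with *Twist2* by 2.31 (runs 2.02 and 2.57). *Tcf3* was higher by 2.07 with *Twist1* and 1.36 with *Twist2* in the zeugopod. The list also held *Hand2*, whose product is a dimer partner, and the *Id* genes, whose products compete for E proteins, and 7 of its genes were measured in each tissue. None was called lower in any comparison, where 1.23% to 5.48% of all genes were. With *Twist1*, the genes called higher were *Tcf12* in the autopod and *Tcf3*, *Tcf12*, *Tcf4* (1.04), *Hand2* (1.01) and *Id1* (1.59) in the zeugopod, of which *Tcf4* and *Hand2* were at 0.39 and 0.65 on the CPM scale. With *Twist2* they were *Tcf3* and *Tcf12*. With *Prrx1* there were 0 in the autopod and *Id1* (1.13) and *Id2* (1.20) in the zeugopod, which were at 0.87 and 0.96 on the CPM scale. With *Prrx2* there were 4. Of 6 genes of epithelial-mesenchymal transition measured, 2 or 3 were called higher in each comparison, and 1 was called lower in each of the 3 autopod comparisons. The lower gene was *Snai1* each time, with a difference of -1.38 or less over both runs joined. Within NXT0072 it was not called for any member, at -0.68 (*Prrx1*), -0.51 (*Prrx2*) and -0.56 (*Twist1*). Within NXT0143 it was at -0.86 with *Prrx1* and -1.16 with *Twist1*. Of all genes, 25.8% (*Prrx1*), 39.5% (*Prrx2*) and 17.3% (*Twist1*) were called higher in the autopod. In the zeugopod the shares were 14.2% (*Prrx1*), 29.7% (*Twist1*) and 27.1% (*Twist2*). Whether the counts of these 2 short lists exceed those shares was not tested. *Cdh11*, the mesenchymal cadherin, was higher with *Prrx1* in the autopod (2.02) and with *Twist1* (1.77) and *Twist2* (3.01) in the zeugopod. *Snai2* was higher with *Twist1* in the autopod (1.33), *Vim* with *Twist2* (1.62), and *Fn1*, which encodes fibronectin, with *Prrx1* (1.84) and *Twist1* (2.35) in the zeugopod.

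Connective tissue genes were measured mainly in the zeugopod. Of 13 there, 8 were called higher in cells with *Twist2* (median 1.09), 4 higher and 1 lower with *Twist1* (median 0.89), and 0 with *Prrx1* (median 0.11). On the CPM scale the list medians were 1.03, 0.39 and -0.27, beside 0.33, 0.38 and 0.22 for all genes. Of all genes, 27.1% were called higher with *Twist2* and 29.7% with *Twist1*. *Lum*, which encodes the small proteoglycan lumican, was higher with *Twist2* by 3.24 (runs 4.47 and 2.14) and with *Twist1* by 1.72, and was present in 11 of 17 cells with *Twist2* and 33 cells without it (31.1%). *Dcn*, which encodes decorin, differed by 1.85 and 1.31, and *Fbn2*, a fibrillin gene, by 1.75 and 1.87. *Col1a1* and *Col6a3* were higher with *Twist2* by 1.46 and 1.34. *Col6a1* was lower with *Twist1* by a difference of -1.51. In the autopod, where 8 connective tissue genes were measured, 2 were called higher with *Prrx1*, 1 with *Twist1*, and 2 higher and 1 lower with *Prrx2*. Of all autopod genes, 25.8%, 17.3% and 39.5% were called higher in the same order of members, and none of these counts exceeded that share. *Col1a2* differed by 2.01, *Col5a2* by 1.34 and *Pdgfra* by 0.99 with *Prrx1*. Of the tendon list, no gene was measured in the autopod and 2 were in the zeugopod, where 0 were called. *Dlx5*, a homeobox gene of the osteoblast lineage, was the only gene of its list measured in the autopod. It was higher with *Prrx1* by 2.36 and with *Prrx2* by 2.79 (2.56 in NXT0072). Of the signalling genes, *Fgfr2* was lower with *Prrx1* in the autopod by a difference of -1.41 and *Dusp6* higher with *Twist2* by 1.18. Of the 7 signalling genes measured in the autopod, 1 (*Prrx1*), 1 (*Prrx2*) and 0 (*Twist1*) were called higher and 1, 1 and 2 lower. The shares of all autopod genes were 25.8%, 39.5% and 17.3% higher and 3.18%, 2.53% and 5.48% lower. Of the 5 in the zeugopod, 2 (*Prrx1*), 0 (*Twist1*) and 1 (*Twist2*) were called higher and 0 lower. There 14.2%, 29.7% and 27.1% of all genes were called higher.

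Proliferation genes were called in part. Of 7 measured in the autopod, 4 were called higher with *Prrx1* (median 1.10), 4 with *Prrx2* (median 2.13) and 4 higher and 1 lower with *Twist1* (median 1.20). With *Prrx1*, *Ccnd1* (0.12), *Ccnd2* (-0.06) and *Pcna* (0.59) were not called, and on the CPM scale the list median and *Mcm5* were both at 0.73. In the zeugopod the counts were 4 of 6 with *Prrx1* (median 1.48), 3 with *Twist1* (median 1.29) and 2 with *Twist2* (median 0.69). Beside these counts, 25.8% (*Prrx1*), 39.5% (*Prrx2*) and 17.3% (*Twist1*) of all autopod genes were called higher. The shares of all zeugopod genes were 14.2% (*Prrx1*), 29.7% (*Twist1*) and 27.1% (*Twist2*), and the count with *Twist2* was near its share. Whether the other counts exceed these shares was not tested. *Top2a*, the topoisomerase of dividing cells, was higher by 3.23 with *Prrx1* and 3.25 with *Twist1* in the autopod, and was present in 33 of 47 cells with *Prrx1* and 12 of 29 without it. Over autopod cells, *Top2a* was present in 25 of 27 cells with *Prrx2* and 20 of 49 without it. Its mean differed by 5.09, and by 5.22 in NXT0072. *Cdk1*, the mitotic kinase, differed by 2.57 with *Prrx1*, 4.02 with *Prrx2* (4.14 in NXT0072) and 2.91 with *Twist1* in the autopod. In the zeugopod *Cdk1* differed by 1.5 and 1.74 with *Prrx1* and *Twist1*. *Mki67* differed by 2.62 with *Prrx1* and 2.24 with *Twist1* in the autopod. *Ccnd1*, a cyclin of the G1 phase, was lower with *Twist1* in the autopod by a difference of -1.51, while *Ccnd2* was higher with *Prrx1* in the zeugopod by 1.62 and *Pcna* with *Twist1* by 2.40. *Top2a* differed by 1.61 with *Prrx1* and 1.93 with *Twist2* in the zeugopod.

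**Figure D5:**
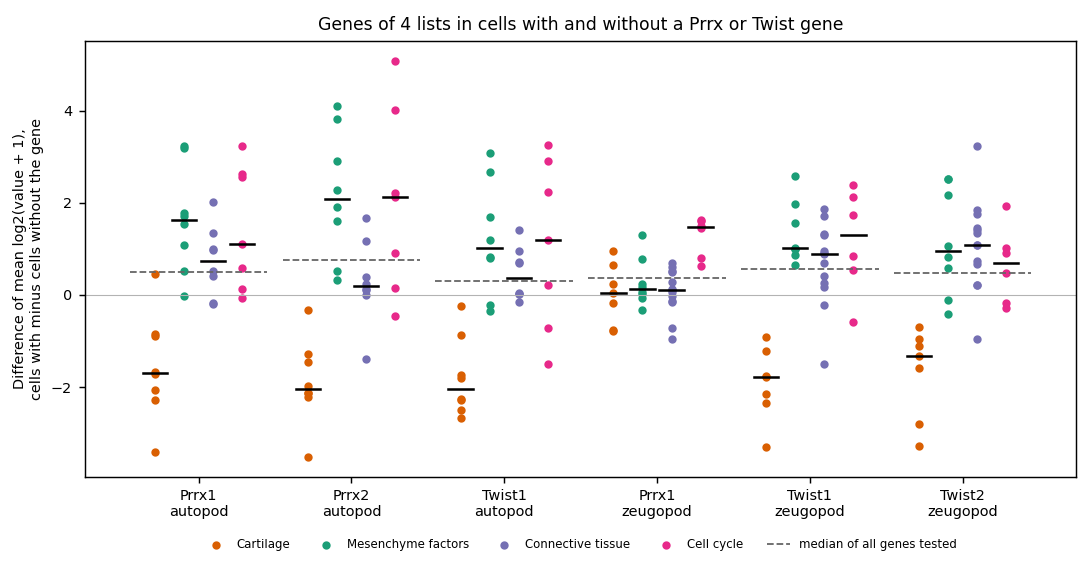
Difference of mean log2(normalised value + 1) (vertical axis) between cells with and without a gene, for each measured gene of 4 lists (points) in 6 comparisons. Black lines are list medians and dashed lines the median of all genes tested. Cartilage medians lie between -2.04 and -1.33 in all comparisons except *Prrx1* in the zeugopod (0.04), while the medians of all genes lie between 0.30 and 0.77.

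The genes whose level followed each member most closely were found by the rank correlation of CPM within the 4 groups of tissue and run, averaged with weights equal to the number of cells, among 4110 genes present in 25% of all retained cells (4109 where the member itself was among them). The highest value for *Prrx1* was 0.32, for *Spc24*, a kinetochore gene, followed by *Ska2* (0.28), *Dnajc9* (0.28), *Tbcb* (0.28) and *Rrm2* (0.28). For *Prrx2* it was 0.44 for *Ccna2*, which encodes cyclin A2, followed by *Birc5* (0.43), *Agap1* (0.35), *Rpf1* (0.35) and *Tpx2* (0.34). The coefficient of *Ccna2* was 0.53 in NXT0072 autopod, 0.02 in NXT0143 autopod, 0.38 in NXT0142 zeugopod and 0.52 in NXT0143 zeugopod cells, and *Prrx2* was present in 1 cell of the second of these. For *Twist1* the genes were *Ska2* (0.33), *Zfhx3* (0.28), *Scmh1* (0.28), *Sema5a* (0.27) and *Ccna2* (0.27), and for *Twist2* *Nol11* (0.31), *Prom1* (0.31), *Sema5a* (0.31), *Ndufs3* (0.30) and *Fam32a* (0.28). On normalised values their ranks, in the order named, were 1, 10, 97, 9 and 40 for *Twist1* and 15, 16, 2, 25 and 19 for *Twist2*. For *Prrx1* they were 1, 5, 3, 10 and 8, and for *Prrx2* 1, 2, 5, 23 and 4. The coefficient of *Nol11* was 0.52 in NXT0072 autopod cells, where *Twist2* was present in 3 of 59 cells. Among the members themselves the averaged coefficients on CPM were 0.22 for *Twist1* with *Twist2*, 0.21 for *Prrx2* with *Twist1* and 0.17 for *Prrx1* with *Twist1*. The other pairs gave 0.17 for *Prrx2* with *Twist2*, 0.14 for *Prrx1* with *Prrx2* and 0.10 for *Prrx1* with *Twist2*. The 95th percentile over all ranked genes was 0.17 for *Prrx1*, 0.20 for *Prrx2*, 0.15 for *Twist1* and 0.18 for *Twist2*. With *Sox9* they were -0.26 for *Twist1*, -0.24 for *Twist2*, -0.19 for *Prrx2* and -0.10 for *Prrx1*. All these coefficients are weak, come from sparse counts and share depth within a cell, and they describe these cells only.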

How the data were processed

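The authors mapped reads uniquely to mm10 (GRCm38) and spike-ins with bowtie2 and deposited raw counts per gene for 225 cells. The deposited normalised signal, for 199 cells, is by the authors' account the count divided by a spike-in size factor centred within each run, then by gene length in kb. Tested on the file, each value is the rounded quotient plus 1, over the length, so that 0 reads give a floor. Centring within runs limits comparisons between runs. Spike-in rows were not used, because their columns could not be matched to the cells. Differences were computed here with numpy 2.4.6 and pandas 2.3.3 and intervals with SciPy 1.17.1, and the code was tested on simulated data. Cells were thinned without replacement (seed 42), which 8 of 199 were too shallow for. Alternatives were other thresholds of reads, other pseudocounts, CPM, thinned cells and single runs. No doublet caller was run, and no 2 cells had identical counts. The 4 members and the gene lists were chosen with earlier results of these data known. Named list genes passed a difference of 1 in both runs of a tissue, except those of *Prrx2* and the few others given to complete a count, which were chosen after their values were seen. For likeness, the 5 highest genes of each member were named.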

Additional observations from a re-analysis of the deposited data

Results flagged for a closer look

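The authors left out 26 cells, which held 17 to 2926028 reads on genes (median 25640). They stand outside every comparison above, yet some held reads of the 4 genes at or above the 5 used to call presence. *Prrx1* was present in 3 of them, with up to 343 reads, *Twist1* in 2, with up to 9 reads, and *Prrx2* in 1, with 662 reads. *Twist2* had 0 reads in all 26.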

How the results depend on the processing

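Each tissue is 1 pooled sample, so that the values describe these cells, and the depth of a cell limits which genes reach 5 reads. No paired analysis was possible because no result comes from a test and the numbers that cells of both tissues share only name cells. Of 40 alternative values for shares of cells, 33 lay within the interval of the value reported. With 1 read as the threshold, shares in the zeugopod were 79.7% for *Prrx1*, 18.7% for *Prrx2*, 25.2% for *Twist1* and 22% for *Twist2*. At a normalised value of 5, *Prrx1* was at 61%. In thinned cells *Twist1* was at 44.4% in the autopod and *Prrx2* at 5.04% in the zeugopod. For tissue differences, NXT0143 alone gave -1.42 (*Prrx1*), 0.22 (*Prrx2*) and 1.12 (*Twist1*), and a pseudocount of 10 gave 1.51 (*Prrx2*) and 1.5 (*Twist1*). Without the filter on low values, 2.83% of genes were called higher and 6.26% lower in the autopod. For *Twist1* in autopod cells, the share with *Prrx1* was 42.9% in NXT0143 and the share without *Prrx2* was 24.5% after thinning. For *Twist1* in zeugopod cells, the share with *Prrx1* was 10% in NXT0143, the share with *Twist2* was 87.5% in NXT0142, and the share without *Twist2* was 18.8% at 1 read and 3.57% in NXT0143.

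The number of members lower by at least 1 in *Sox9* cells of the zeugopod, 1 as reported, was 2 with *Sox9* at 1 read, 0 with a pseudocount of 10 and 0 in NXT0142. In *Col2a1* cells of the zeugopod it was 2 as reported, 1 with *Col2a1* at 20 reads, 0 in thinned cells and 4 in NXT0142. In the autopod within NXT0143, *Prrx2* (0.25) and *Twist1* (0.75) turned to higher values in *Col2a1* cells, against 3 cells without it. Members with a rank correlation of -0.3 or less with *Sox9* numbered 2 rather than 1 in the autopod on CPM, and 2 given the genes detected, and 1 rather than 0 in the zeugopod in NXT0142 and 1 in NXT0143. With *Col2a1* they numbered 0 rather than 3 in NXT0143 autopod cells and 1 rather than 0 in NXT0142. Genes called lower in cells with a member were more on CPM, with 222 (*Prrx1*), 254 (*Prrx2*) and 360 (*Twist1*) in the autopod and 131 (*Prrx1*), 215 (*Twist1*) and 252 (*Twist2*) in the zeugopod. In NXT0143 autopod cells they numbered 1027 (*Prrx1*) and 655 (*Twist1*, with 1583 higher). In NXT0142 they numbered 284 (*Prrx1*, with 1251 higher), 325 (*Twist1*) and 469 (*Twist2*), and in NXT0143 zeugopod cells 198, 359 and 303. The cause of these changes was not tested. The relation to presence of *Sox9* could not be given for NXT0143 autopod cells, which all held it, nor that of *Prrx2* there, which 1 cell held.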
